A study of Mus musculus with 8 samples.

Results

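Interferon-stimulated genes are the genes that cells switch on when an interferon binds its receptor, and 42 of them were followed here through the whole fetal mouse lung, with and without tracheal occlusion (TO). The 42 members were given as a list of symbols. All 42 were found among the 55385 gene IDs of the count tables, so 0 symbols were missing, and all 42 were among the 22545 genes that passed the filter on low counts, at least 5 reads in 3 or more libraries. Bulk lung RNA came from C57BL/6 fetuses at E18.5, from 4 control and 4 TO lungs. In TO fetuses the trachea had been tied through the uterine wall, together with a carotid artery and a jugular vein, 2 days before collection, and the dams received progesterone on the following day. The surgery of the mouse controls is not described in the sources used here. The labels name no transgene or deletion in either group. The specimen names carry 1 of 3 number codes, called here code A (controls 1 and 4, TO 1 and 4), code B (control 2 and TO 2) and code C (control 3 and TO 3). What the codes stand for is not given in the sources used here, and neither are the litters, so p-values measure only the spread between these lungs. The questions put to the members were which of them followed occlusion and which followed control 3 and TO 3, a pair that had been singled out with earlier results of these data known.

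Interferons are secreted proteins, most of them made by cells that sense foreign nucleic acid. Type I interferons (interferon alpha and beta), type II (gamma) and type III (lambda) bind separate receptors, whose JAK kinases phosphorylate STAT proteins. STAT proteins join IRF9 in a complex that binds the interferon-stimulated response element (ISRE), whereas STAT complexes without IRF9 bind the gamma-activated site (GAS). The induced genes include the sensors and the STAT and IRF proteins of the pathway itself, enzymes that degrade or block viral RNA, membrane proteins that hinder virus entry or release, and GTPases that act on the vacuoles of intracellular pathogens. Airway epithelium, endothelium, fibroblasts and leukocytes of the lung can all switch on this programme.

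Reads counted on genes numbered 22822261 to 35002061 in 7 libraries and 270078 in TO 1. Levels are given in CPM, the reads on a gene relative to all reads on genes of the same library, after TMM scaling. A single read was worth 3.44 CPM in TO 1, where all 42 members together had 205 reads, 6 members had none and 13 had 1 to 3. A count of 0 in TO 1 allowed up to 10.3 CPM (3 reads, counting error only), and a level there is a few reads. In the libraries with code C, 13.9% (control 3) and 14.9% (TO 3) of all reads fell on no gene, against 9.64% to 13.2% in the others, and mitochondrial genes took 1.11% and 1.22% of the reads on genes, against 1.40% to 2.33%. Of 10 lung markers, all were detected in every library, among them Sftpc, the surfactant protein of alveolar type II cells, at 4431 to 12792 CPM. None of the 10 was called in any comparison below.

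The promoters of the members were searched for both elements in the RefSeq windows of GRCm38.p6, which run from 250 bases before to 50 after each annotated start. Windows were given for 32 members. The ISRE letters GAAANNGAAA, on either strand and with overlapping matches counted, were found in 18 of the 32 (56.2%) and in 3.99% of all 27025 genes with a window. The GAS letters TTCNNNGAA, which read the same on both strands, were found in 7 of the 32 (21.9%) and in 9.55% of all genes. A match is a description of the letters only. The 250 bases before the start are printed for the 4 members with a window that differed most between control 3 and TO 3 and the other 6 libraries (Ifit3b, Ifit3, Ifit1 and Isg15), and for Irf7, a member with a large difference and no ISRE letters in its window. They are written 5′ to 3′ on the strand of the gene, with the ISRE matches in capitals.
Ifit3b, chr19:34607707-34607956, plus strand: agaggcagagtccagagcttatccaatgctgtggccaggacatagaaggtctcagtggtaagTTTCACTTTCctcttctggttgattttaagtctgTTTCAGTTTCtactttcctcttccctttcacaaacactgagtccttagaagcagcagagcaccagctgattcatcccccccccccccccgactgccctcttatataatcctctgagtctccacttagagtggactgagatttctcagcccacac
Ifit3, chr19:34583279-34583528, plus strand: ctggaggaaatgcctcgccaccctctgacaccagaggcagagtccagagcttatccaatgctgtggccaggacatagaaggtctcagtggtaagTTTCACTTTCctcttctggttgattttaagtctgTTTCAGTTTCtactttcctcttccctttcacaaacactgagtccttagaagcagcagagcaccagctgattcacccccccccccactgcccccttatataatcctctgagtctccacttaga
Ifit1, chr19:34640639-34640888, plus strand: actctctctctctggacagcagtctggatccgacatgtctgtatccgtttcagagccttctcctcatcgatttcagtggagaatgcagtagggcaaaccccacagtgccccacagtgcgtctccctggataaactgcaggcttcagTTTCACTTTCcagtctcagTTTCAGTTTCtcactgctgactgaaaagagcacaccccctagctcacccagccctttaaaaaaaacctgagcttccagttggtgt
Isg15, chr4:156200819-156201068, minus strand: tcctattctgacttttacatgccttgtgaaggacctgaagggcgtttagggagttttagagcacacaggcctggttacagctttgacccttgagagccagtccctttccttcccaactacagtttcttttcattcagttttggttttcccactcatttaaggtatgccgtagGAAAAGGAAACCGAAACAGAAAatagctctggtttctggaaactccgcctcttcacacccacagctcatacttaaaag
Irf7, chr7:141266425-141266674, minus strand: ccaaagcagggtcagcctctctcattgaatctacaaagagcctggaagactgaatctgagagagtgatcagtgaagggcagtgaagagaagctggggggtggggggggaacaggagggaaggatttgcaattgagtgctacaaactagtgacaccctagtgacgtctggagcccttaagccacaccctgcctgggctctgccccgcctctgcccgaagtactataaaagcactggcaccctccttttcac
Ifit3 and Ifit3b carry the same pair of capitals at the same spacing, 156 and 188 bases before their starts for the first of the pair, and their windows are nearly alike along most of their length. In Isg15 there were 3 overlapping matches in a row, the first of them 78 bases before the start. Among members with a window, the median log2 difference between the pair and the other libraries was 1.51 for the 18 with an ISRE match (range 0.67 to 4.45) and 1.23 for the 14 without (range 0.27 to 2.42), so the ranges overlapped broadly. For the GAS letters the order was the other way, with a median of 0.90 for the 7 with a match (range 0.27 to 1.74) and 1.696 for the 25 without (range 0.67 to 4.45), again with overlap.

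In the 8 libraries the members moved mainly with control 3 and TO 3. Their summed level was 1273 CPM in control 3 and 2141 CPM in TO 3, against 569, 706 and 614 CPM in controls 1, 2 and 4 and 706, 615 and 891 CPM in TO 1, 2 and 4. The highest level of a member was in TO 3 for 41 of the 42 and in control 3 for 1 (Ifitm1). In bulk lung, more cells that express these genes and more RNA per cell cannot be told apart. With occlusion and code C as terms of the fit, 36 of the 42 members were higher in the pair at an adjusted p under 0.1 and 0 were lower (edgeR quasi-likelihood test, Benjamini-Hochberg over all genes). Of all genes tested, 2.62% were called higher and 3.05% lower. The median log2 fold change of the members was 1.51, with a range of 0.27 (Ifi35) to 4.45 (Ifit3b), so all 42 were above 0 (48.6% of all genes). DESeq2 called 37 (5.01% of all genes), the same 36 among them. The 6 members not called were Dhx58, Zbp1, Herc6, Ifi35, Gbp2 and Igtp. For 29 members both libraries of the pair lay above all other 6, which was the case for 10.1% of all genes, and for 33 when TO 1 was left out (11.7% of all genes). The call depended on each library of the pair. Without control 3, so that TO 3 stood alone for the code, 1 member (Lgals3bp) was called (0.00457% of all genes), although all 42 fold changes were above 0 (48.5% of all genes) with a median of 1.62. Without TO 3, 14 were called (2.22% of all genes), 41 were above 0 (46.3% of all genes) and the median was 1.24.

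**Figure D1:**
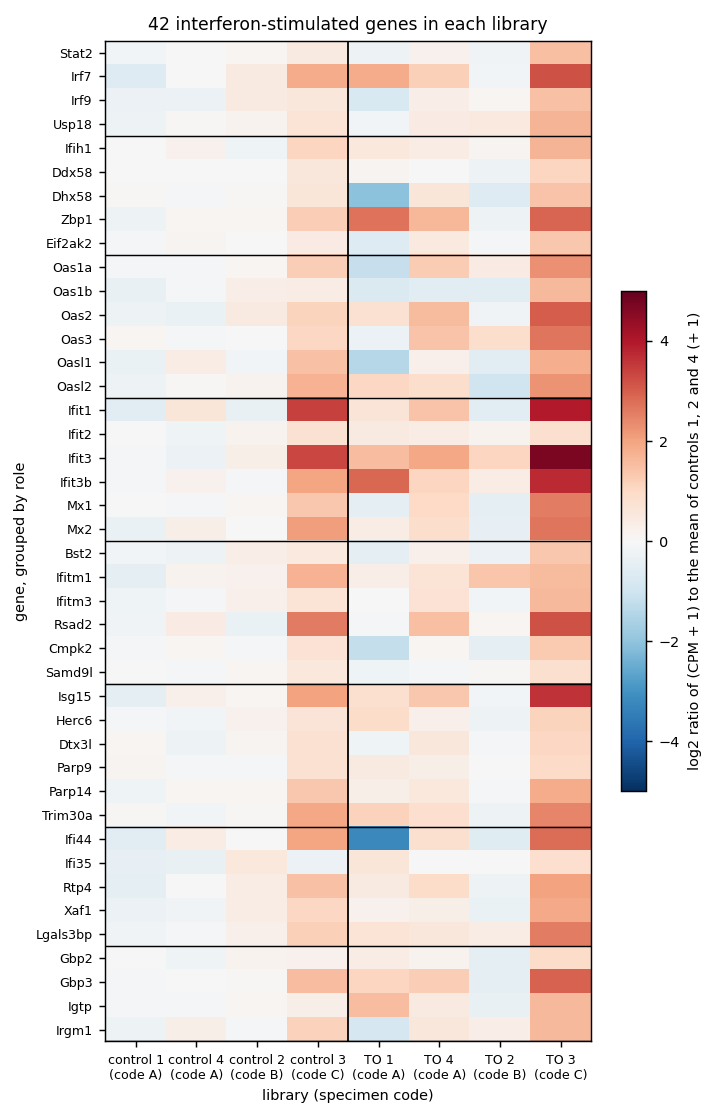
Heat map of the 42 members (rows, grouped by role and separated by lines) in the 8 libraries (columns, controls left and TO right, specimen code in brackets), as the log2 ratio of CPM + 1 to the mean of controls 1, 2 and 4 + 1. The columns of control 3 and TO 3 are red over most members, whereas TO 2 is near white or blue and TO 4 is pale red.

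Among the signalling members all 4 were higher in the pair. Irf7, the transcription factor that amplifies type I interferon production (chr7:141262706-141266481, minus strand, GENCODE M21 on GRCm38), measured 3.46, 8.38, 24.0 and 5.97 CPM in controls 1 to 4 and 24.1, 5.24, 61.5 and 14.8 CPM in TO 1 to 4. Its 7 reads in TO 1 put that library level with control 3, and the other 5 libraries lay below the pair. The log2 fold change of the pair was 2.24 ± 0.37 (SE; adjusted p = 0.00902). Stat2, a subunit of the complex that binds the ISRE, was at 40.9, 48.2, 61.6 and 45.5 CPM in controls 1 to 4 and 37.9, 39.4, 128 and 52.1 CPM in TO 1 to 4. TO 3 was far above all the others and control 3 was the next highest, with a log2 fold change of 1.01 ± 0.21 (adjusted p = 0.0227). Irf9, the DNA-binding subunit of the same complex, was at 33.7, 56.6, 62.0 and 33.3 CPM in controls 1 to 4 and 24.1, 44.1, 115 and 52.1 CPM in TO 1 to 4. Control 3 exceeded control 2 by little, and the log2 fold change was 0.99 ± 0.24 (adjusted p = 0.0491). Irf7 overlaps Phrf1 and Irf9 overlaps Rnf31 in the annotation, and the counts do not use strand. Reads that fell on more than 1 gene were left out, so any reads on shared stretches are missing from these levels. The fourth member is Usp18, the protease that removes ISG15 from proteins and restrains the type I receptor, with a log2 fold change of 1.06 ± 0.23 (adjusted p = 0.0266).

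Of the 5 sensors of foreign nucleic acid, 3 were called. Ifih1, which encodes the sensor MDA5 of long double-stranded RNA, was at 16.2, 14.4, 35.9 and 19.3 CPM in controls 1 to 4 and 24.1, 18.47, 56.9 and 21.9 CPM in TO 1 to 4. Both libraries of the pair stood above all the others, by a log2 fold change of 1.29 ± 0.17 (adjusted p = 0.00387). Ddx58, which encodes RIG-I, was at 47.6, 46.0, 68.5 and 45.6 CPM in controls 1 to 4 and 51.6, 38.3, 98.8 and 46.8 CPM in TO 1 to 4, again with the pair on top (0.87 ± 0.16, adjusted p = 0.0129). Eif2ak2, the kinase PKR that halts translation when it binds double-stranded RNA, was at 35.4, 37.3, 51.7 and 42.1 CPM in controls 1 to 4 and 24.1, 36.3, 98.0 and 54.2 CPM in TO 1 to 4. TO 4 lay above control 3, so the pair overlapped the rest, and the log2 fold change was 0.83 ± 0.21 (adjusted p = 0.0605). The members not called were Dhx58, which encodes LGP2 (1.195 ± 0.44, adjusted p = 0.183), and Zbp1, a sensor of Z-form nucleic acid (2.70 ± 1.08, adjusted p = 0.222). Zbp1 had 1.78 CPM in control 3 and 7.97 CPM in TO 3, whereas it was at or below 0.292 CPM in controls 1, 2 and 4, at 0 in TO 2 and at 6.89 CPM (2 reads) in TO 1. TO 4, at 2.78 CPM (98 reads), exceeded control 3 (53 reads).

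The oligoadenylate synthetase family includes the enzymes that make the second messenger that activates RNase L, and all 6 family members listed were called. Oasl2, an OAS-like member, was at 17.8, 24.3, 75.1 and 22.4 CPM in controls 1 to 4 and 44.8, 10.3, 105 and 40.0 CPM in TO 1 to 4. The pair stood above all other libraries, and TO 2 was the lowest of the 8, with a log2 fold change of 1.88 ± 0.35 (adjusted p = 0.0144). Oas2 was at 1.23, 2.60, 4.77 and 1.13 CPM in controls 1 to 4 and 3.44, 1.36, 20.5 and 6.87 CPM in TO 1 to 4. TO 4 exceeded control 3, and TO 3 had the highest level (1.94 ± 0.50, adjusted p = 0.0613). Oas1b, which GENCODE annotates as a polymorphic pseudogene, was at 4.73, 8.32, 8.57 and 5.97 CPM in controls 1 to 4 and 3.44, 3.99, 21.4 and 4.002 CPM in TO 1 to 4. For this gene TO 3 alone stood apart, while control 3 lay next to control 2 (1.52 ± 0.40, adjusted p = 0.0613). The remaining 3 (Oas1a, Oas3 and Oasl1) had log2 fold changes of 1.74, 2.37 and 2.21, and no read in TO 1.

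The family with the largest differences was that of the IFIT and MX proteins, with 6 of 6 called and a median log2 fold change of 3.32. IFIT proteins bind RNA that lacks the host's cap methylation, and MX proteins are dynamin-like GTPases that trap viral components. Ifit3 (chr19:34583531-34588731, plus strand) was at 0.482, 0.845, 14.3 and 0.242 CPM in controls 1 to 4 and 3.44, 2.20, 39.2 and 4.83 CPM in TO 1 to 4. The log2 fold change of the pair was 4.14 ± 0.39 (adjusted p = 0.00159), with both libraries above the other 6. Ifit1 (chr19:34640871-34650009, plus strand) was at 0.963, 1.202, 29.3 and 3.31 CPM in controls 1 to 4 and 3.44, 0.955, 42.8 and 6.50 CPM in TO 1 to 4. Its pair was likewise above the rest, at a log2 fold change of 3.78 ± 0.52 (adjusted p = 0.00443). Ifit2, the most even member of the family, was at 18.0, 19.7, 30.6 and 14.8 CPM in controls 1 to 4 and 24.1, 19.9, 31.5 and 23.1 CPM in TO 1 to 4 (0.68 ± 0.17, adjusted p = 0.0591). Control 3 and TO 3 were nearly level for this gene. Mx2, also annotated as a polymorphic pseudogene, was at 1.80, 2.40, 13.8 and 3.23 CPM in controls 1 to 4 and 3.44, 1.59, 20.9 and 5.36 CPM in TO 1 to 4 (2.53 ± 0.37, adjusted p = 0.00571). Mx1, whose protein is nonfunctional in most inbred strains, had a log2 fold change of 2.86 ± 0.79 (adjusted p = 0.0781). Ifit3b had 4.45 ± 0.82 (adjusted p = 0.0137) from 3.29 CPM in control 3 and 13.3 CPM in TO 3, with no read in controls 1 and 2. Ifit3 and Ifit3b are near-identical copies. Reads that align to several places were not counted, so both levels rest on the reads that told the copies apart and may be too low.

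**Figure D2:**
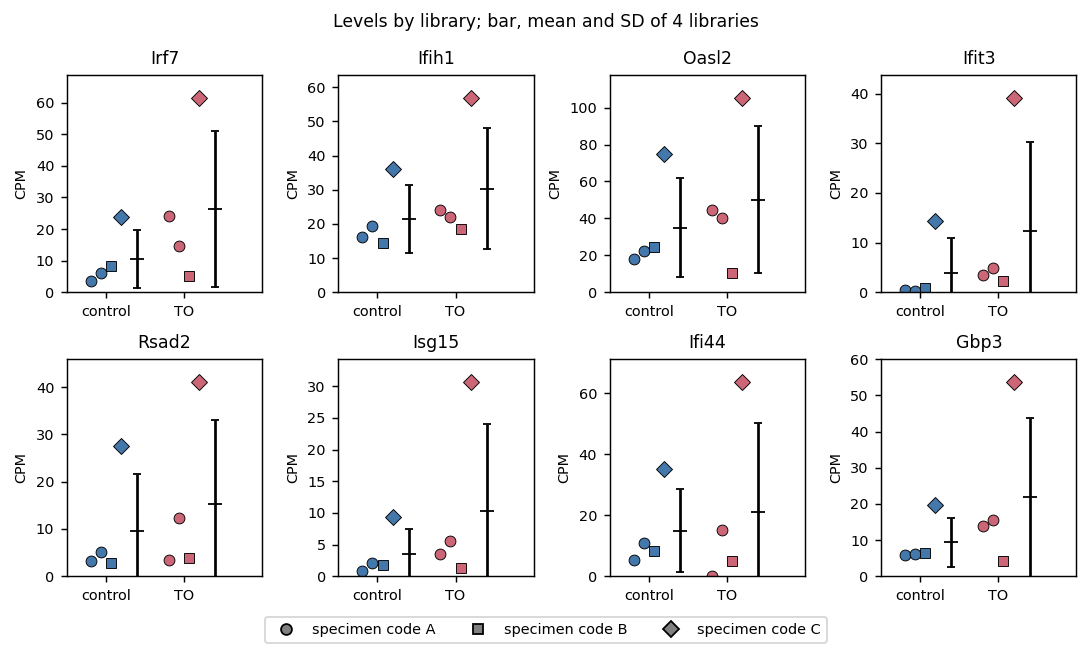
Levels in CPM of 8 members, a point for each library (control blue, TO red; circle, square and diamond for specimen codes A, B and C), with the mean and SD of the 4 libraries of each group; lower ends of the bars below 0 are not drawn. In all 8 panels the diamond is the highest point of its group, and for Irf7 the level of TO 1 (7 reads) is close to that of control 3.

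Among membrane and nucleotide effectors all 6 were called. Ifitm3, a membrane protein that blocks virus fusion, was at 60.0, 83.7, 114 and 65.0 CPM in controls 1 to 4 and 68.9, 63.9, 213 and 117 CPM in TO 1 to 4. TO 4 reached slightly above control 3, and TO 3 was the highest (1.01 ± 0.22, adjusted p = 0.0287). Bst2, or tetherin, which holds budding virus at the cell surface, was at 30.2, 41.3, 46.1 and 27.3 CPM in controls 1 to 4 and 24.1, 26.8, 85.7 and 39.5 CPM in TO 1 to 4 (0.97 ± 0.23, adjusted p = 0.0464). Control 3 lay close to control 2 and TO 4, whereas TO 3 stood apart. Rsad2, or viperin, which makes a chain-terminating nucleotide, was at 3.15, 2.73, 27.6 and 5.21 CPM in controls 1 to 4 and 3.44, 3.97, 41.1 and 12.3 CPM in TO 1 to 4. Here the pair was far above the rest, by 2.66 ± 0.35 on the log2 scale (adjusted p = 0.00383). Samd9l, a cytosolic restriction factor, was at 54.9, 59.8, 81.1 and 52.2 CPM in controls 1 to 4 and 48.2, 58.5, 97.0 and 51.7 CPM in TO 1 to 4 (0.69 ± 0.13, adjusted p = 0.0171). The other 5 libraries at full depth differed little from each other. Cmpk2, a mitochondrial nucleotide kinase, had a log2 fold change of 1.18. Ifitm1 was the exception to the order within the pair, at 13.8, 22.2, 66.1 and 21.5 CPM in controls 1 to 4 and 24.1, 51.4, 60.1 and 31.7 CPM in TO 1 to 4 (1.27 ± 0.28, adjusted p = 0.0286). Per kb of exon, the median level over the 8 libraries was highest for Ifitm3 (112 CPM per kb), Bst2 (38.6) and Ifitm1 (25.5) and lowest for Oas3 (0.112).

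Ubiquitin-like and ADP-ribosyl members were called in 5 of 6 cases. Isg15, the ubiquitin-like protein that is attached to newly made proteins (chr4:156199424-156200818, minus strand), was at 0.876, 1.75, 9.28 and 2.06 CPM in controls 1 to 4 and 3.44, 1.36, 30.7 and 5.53 CPM in TO 1 to 4. The pair exceeded all other libraries, by 2.86 ± 0.43 on the log2 scale (adjusted p = 0.00594). Parp14, an ADP-ribosyltransferase, was at 26.5, 32.9, 80.9 and 33.3 CPM in controls 1 to 4 and 37.9, 28.9, 114 and 45.1 CPM in TO 1 to 4. It had the smallest adjusted p of this class, with a log2 fold change of 1.501 ± 0.17 (adjusted p = 0.00272). Trim30a, a TRIM family protein, was at 7.62, 7.50, 30.1 and 6.50 CPM in controls 1 to 4 and 17.2, 5.96, 43.7 and 13.6 CPM in TO 1 to 4, and the pair lay above the rest (2.07 ± 0.26, adjusted p = 0.00354). The partners Dtx3l, a ubiquitin ligase, and Parp9 overlap on opposite strands, so any reads that fell on both were left out. Dtx3l was at 21.6, 21.9, 34.9 and 16.6 CPM in controls 1 to 4 and 17.2, 19.2, 41.6 and 30.3 CPM in TO 1 to 4 (0.80 ± 0.20, adjusted p = 0.0534). Parp9 was at 24.9, 21.7, 38.9 and 20.7 CPM in controls 1 to 4 and 31.0, 22.1, 44.7 and 28.0 CPM in TO 1 to 4 (0.79 ± 0.16, adjusted p = 0.0221). In both genes the pair was highest, with modest distance to TO 4 or TO 1. Herc6, the ligase that attaches ISG15 in mice, was not called (0.89 ± 0.27, adjusted p = 0.104).

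Of 5 other induced genes, 4 were called. Lgals3bp, a secreted glycoprotein that binds galectins, was at 12.9, 17.4, 34.3 and 13.4 CPM in controls 1 to 4 and 24.1, 18.9, 91.2 and 22.1 CPM in TO 1 to 4. Its log2 fold change with all libraries was 1.696 ± 0.21 (adjusted p = 0.00331). Ifi44 was at 5.47, 8.41, 35.3 and 10.9 CPM in controls 1 to 4 and 0, 5.01, 63.7 and 15.3 CPM in TO 1 to 4 (2.42 ± 0.38, adjusted p = 0.00679). Rtp4, a receptor transporter protein, was at 6.74, 13.1, 29.2 and 9.93 CPM in controls 1 to 4 and 13.8, 8.16, 43.5 and 19.6 CPM in TO 1 to 4 (1.60 ± 0.29, adjusted p = 0.0136). Xaf1, a partner of the caspase inhibitor XIAP, was at 9.24, 15.4, 25.2 and 10.3 CPM in controls 1 to 4 and 13.8, 8.94, 45.4 and 14.3 CPM in TO 1 to 4 (1.53 ± 0.26, adjusted p = 0.00902). In these 4 genes both libraries of the pair stood above the other 6. Ifi35 went its own way, with 8.91 CPM in control 3 and 16.6 CPM in control 2 (0.27 ± 0.33, adjusted p = 0.751).

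The GTPases, which respond to interferon gamma as well as to type I interferons, were called in 2 of 4 cases. Gbp3, a guanylate-binding protein, was at 5.78, 6.30, 19.6 and 6.05 CPM in controls 1 to 4 and 13.8, 4.17, 53.7 and 15.4 CPM in TO 1 to 4, with the pair on top (2.06 ± 0.35, adjusted p = 0.01). Irgm1, an immunity-related GTPase, was at 5.78, 6.43, 16.6 and 8.88 CPM in controls 1 to 4 and 3.44, 9.12, 23.5 and 10.9 CPM in TO 1 to 4, and the pair again exceeded the rest (1.27 ± 0.24, adjusted p = 0.0165). Igtp, of the same family, was at 6.17, 7.15, 8.17 and 6.26 CPM in controls 1 to 4 and 20.7, 4.86, 21.9 and 9.17 CPM in TO 1 to 4. Here control 3 was no higher than TO 4, and the test was not passed (0.90 ± 0.36, adjusted p = 0.226). Gbp2 was not called either (0.66 ± 0.29, adjusted p = 0.265). Igtp overlaps Irgm2, another gene of this family.

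**Figure D3:**
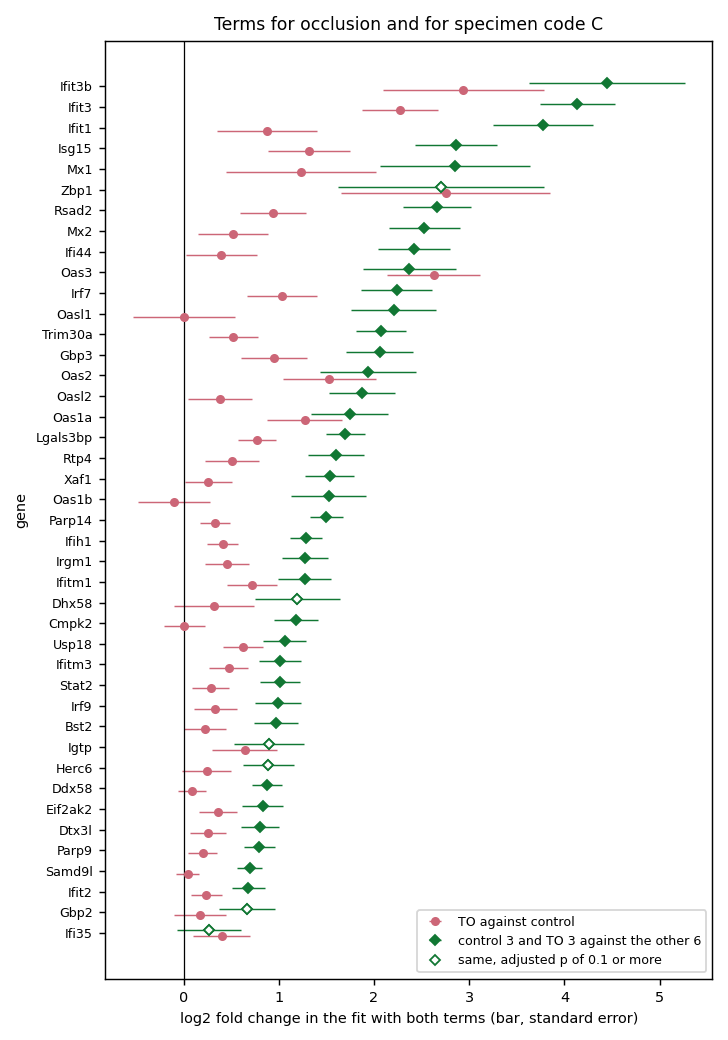
Log2 fold changes of the 42 members for control 3 and TO 3 against the other 6 libraries (diamonds; open where the adjusted p was 0.1 or more) and for TO against control (circles), in the same fit, with bars of 1 standard error. All 42 diamonds lie above 0, from 0.27 to 4.45, and 41 of the circles lie above 0, mostly nearer to it.

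Occlusion itself called no member, and in edgeR with all 8 libraries it called no gene at all. With all 8 libraries and no other term, the log2 fold change of TO against control was above 0 for all 42 (46.8% of all genes), with a median of 0.55 against -0.02 for all genes, but 0 of 42 passed an adjusted p of 0.1 in edgeR (0% of all genes). DESeq2 and limma-voom also called 0 members. At an unadjusted p under 0.05 there were 2 members, Oas3 (2.53 ± 0.82) and Oas2 (1.88 ± 0.72), both with an adjusted p of 1 in edgeR, beside 1.43% of all genes. No member had all 4 TO lungs above all 4 controls, which was so for 0.71% of all genes. The direction changed for most members when TO 3 alone was left out. Without it, with control 3 still among the controls, 16 of 42 were above 0 (46.6% of all genes), the median was -0.06, and 0 were called by edgeR. Without control 3 the median was 0.99, and 23 had an unadjusted p under 0.05 (2.92% of all genes), again with 0 called by edgeR. The 6 libraries that the study drew hold TO 3 but not control 3. In them the median was 1.05 and 26 members had an unadjusted p under 0.05 (3.07% of all genes), with 0 called by edgeR. The study itself used DESeq2 and reported genes with an adjusted p under 0.1. Its upstream analysis of genes chosen by fold change listed interferons among the activated regulators. When control 3 and TO 3 were both left out, 35 were above 0 (48.2% of all genes) with a median of 0.35, and 6 had an unadjusted p under 0.05 (2.03% of all genes). These were Oas1a, Oas3, Ifit3, Ifit3b, Ifitm1 and Lgals3bp. With code C as a term, 41 were above 0 (49.2% of all genes) with a median of 0.43, and 15 had an unadjusted p under 0.05 (2.05% of all genes). The smallest was that of Ifit3 (2.27 ± 0.40, adjusted p = 0.574 in edgeR), followed by Oas3 (2.63 ± 0.49, adjusted p = 0.759).

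Within specimen codes, the direction of TO against control was not the same. These ratios compare single libraries and have no replicate check. TO 3 was above control 3 for 41 of 42 members, and by at least 1.5-fold for 27 (22.5% of all genes), with a median ratio of 1.83. TO 4 was above the mean of controls 1 and 4 for 40, by at least 1.5-fold for 24 (15.8% of all genes), with a median of 1.64. TO 2 was below control 2 for 30 and above it for 12, with a median of 0.777. It was lower by at least 1.5-fold for 15 (19.3% of all genes) and higher by that much for 4 (16.7% of all genes). Thus Oasl2 was 1.40-fold higher in TO 3 than in control 3 and 1.99-fold higher in TO 4 than in its controls, whereas TO 2 was at 0.423 of control 2. In all 3 codes, TO 1 left out, TO was above control for 11 members (11.7% of all genes): Usp18, Ifih1, Oas1a, Oas3, Ifit2, Ifit3, Ifit3b, Rsad2, Parp9, Lgals3bp and Irgm1. The difference was at least 1.5-fold in all 3 for Oas3, Ifit3 and Ifit3b (2.26% of all genes). For Oas3 the levels were 0.307, 0.227, 1.51 and 0.161 CPM in controls 1 to 4 and 0, 1.27, 6.98 and 2.27 CPM in TO 1 to 4. Oas3 was thus low in controls 1, 2 and 4, at 4 to 7 reads each, and TO 2 and TO 4 lay near control 3.

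**Figure D4:**
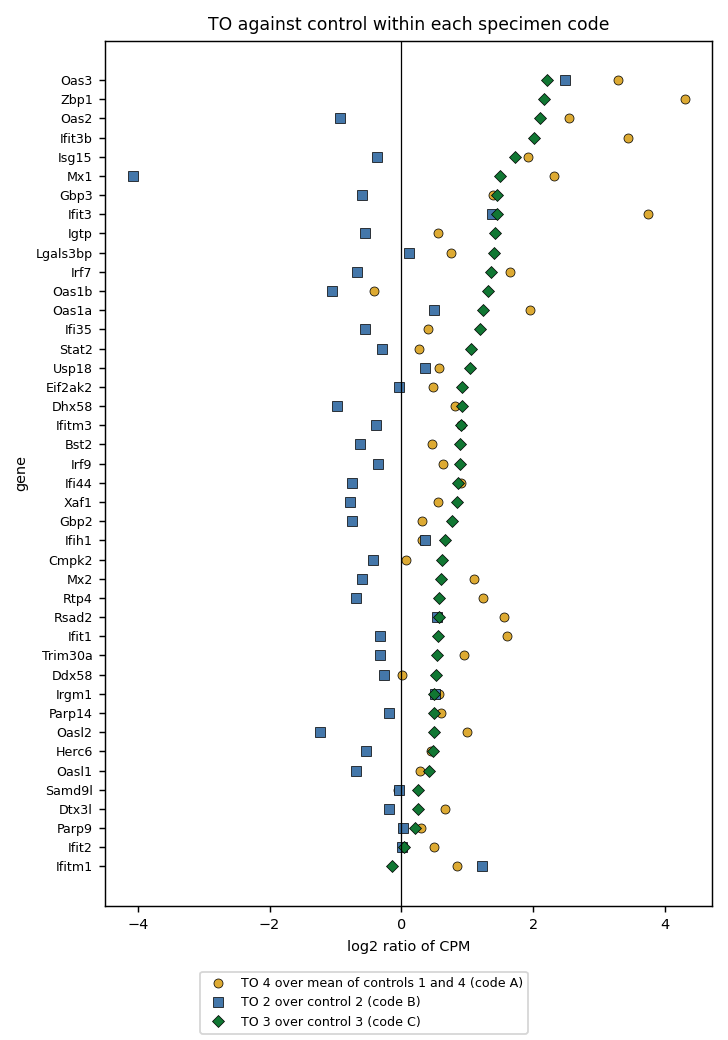
Log2 ratio of CPM, TO over control, for each member within each specimen code (circle, TO 4 over the mean of controls 1 and 4; square, TO 2 over control 2; diamond, TO 3 over control 3). Diamonds lie above 0 for 41 members and circles for 40, whereas TO 2 was below control 2 for 30, of which Zbp1 (no read in TO 2) has no square. Ifit3b, with no read in control 2, has none either.

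Control lungs alone showed the same contrast without any occlusion. Control 3 was above the mean of controls 1, 2 and 4 for 41 of 42 members and by at least 1.5-fold for 33 (19.2% of all genes), with a median ratio of 2.36. TO 3 was at least 1.5-fold above that mean for all 42 (18.3% of all genes), with a median of 3.60. Whether occlusion acted differently in code C was asked by the interaction term. It was above 0 for 32 of 42 members (53.2% of all genes), with a median of 0.42, and 0 were called by edgeR, DESeq2 or limma-voom (0% of all genes by edgeR). At an unadjusted p under 0.05 it was higher for 4 members (4.61% of all genes), Stat2, Oas1b, Bst2 and Lgals3bp, and lower for Ifitm1. Code C had 1 library in each group, so the spread in this test came from the other 6.

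The interferons themselves were scarcely detected. Of 17 type I genes, 14 had no read in any library, a count that allows up to 0.0852 to 0.131 CPM in the 7 deep libraries, and the reads of near-identical interferon alpha genes that align to several places were not counted. Ifnb1 had 1 read, in TO 4, and Ifnab 2 reads, in control 4. Ifnk, the one type I gene that passed the filter, measured 0.0876, 0.162, 0.437 and 0.283 CPM in controls 1 to 4 and 0, 0.0579, 0 and 0 CPM in TO 1 to 4. Every control lay above every TO library, but at only 2 to 13 reads in a control, and the 0 in the shallow TO 1 says little. The share of all genes in this order was not computed. Ifnk overlaps Mob3b on the opposite strand, and the counts do not use strand. Ifng, the type II interferon, had no read in control 3 or TO 3, and Ifnl2 and Ifnl3 none in any library. Of the 6 receptor subunits, 0 were called for the pair, with a median log2 fold change of 0.26. Ifnar1, the first chain of the type I receptor, was at 131, 111, 149 and 127 CPM in controls 1 to 4 and 96.4, 120.0, 111 and 126 CPM in TO 1 to 4, and the libraries overlapped. For Ifngr1 and Ifnlr1 both libraries of the pair lay above the other 6 (10.1% of all genes), and for the remaining subunits they did not. Of 11 genes upstream of interferon production, 0 were called higher (2.62% of all genes) and 1 lower (3.05% of all genes). The lower one was Tmem173, which encodes the adaptor STING (-0.90 ± 0.24, adjusted p = 0.0664, edgeR). Both libraries of the pair lay above the other 6 for Tbk1 and Tlr7 and for no other gene of this list. Of 50 further induced genes, 47 passed the filter and 19 were called higher in the pair (2.62% of all genes), with 0 lower (3.05% of all genes). The 3 most abundant of these 47 were Ly6e, B2m and Trim25. B2m, the light chain of MHC class I, was at 149.8, 164, 203 and 141 CPM in controls 1 to 4 and 151, 148, 288 and 180.3 CPM in TO 1 to 4 and was called (0.63 ± 0.14, adjusted p = 0.031), as was Trim25, the ligase that activates RIG-I (0.70 ± 0.19, adjusted p = 0.0808). Ly6e was not (0.23 ± 0.16, adjusted p = 0.527). In TO against control, 0 genes of these lists were called (0% of all genes by edgeR).

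**Figure D5:**
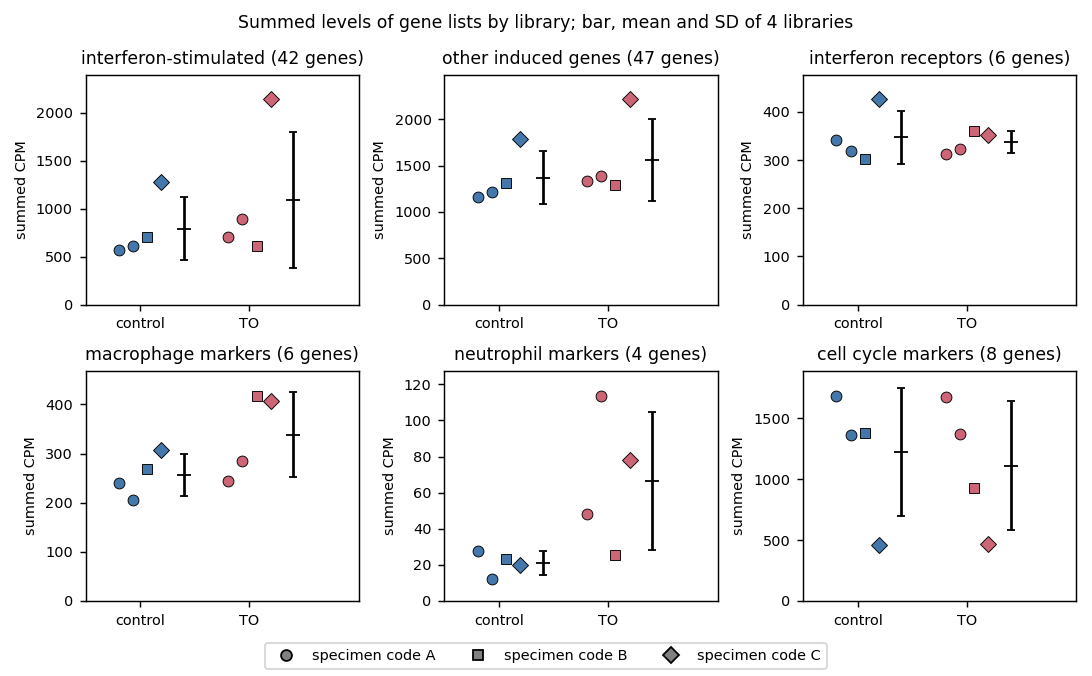
Summed CPM by library of the members, 47 other induced genes, 6 interferon receptor subunits and the markers of macrophages, neutrophils and the cell cycle (control blue, TO red; symbols give the specimen code), with the mean and SD of 4 libraries. Diamonds, code C, are highest within their group for both sets of induced genes and lowest for the cell cycle markers.

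Other gene groups moved with the pair or with single libraries. The 8 cell cycle markers, among them Mki67 and Top2a, were all lower in control 3 and TO 3 (edgeR adjusted p of 0.00383 to 0.0479), at a summed 461 and 465 CPM against 928 to 1687 CPM elsewhere. Their part in the level of the members was not tested, nor was that of the reads outside genes. Leukocyte markers were not called in the pair for 6 macrophage, 4 neutrophil or 6 lymphocyte genes. The summed macrophage markers were at 307 and 406 CPM in the pair and 206 to 418 CPM elsewhere, so the ranges overlapped. Neutrophil markers were at 20.2 and 78.1 CPM in the pair and 12.1 to 114 CPM elsewhere, with Ly6g at 0 in all libraries. Lymphocyte markers were at 16.3 and 30.4 CPM in the pair, 9.29 to 22.7 CPM in 5 libraries and 120 CPM in TO 1. Of 5 markers of plasmacytoid dendritic cells, which produce type I interferon, 0 were called higher in the pair (2.62% of all genes) and 1 lower (3.05%). Siglech had no read in control 3 or TO 3 and at most 0.569 CPM elsewhere. Tcf4, which made up most of the reads of this list, was at 221 and 227 CPM in the pair and 158 to 217 CPM elsewhere and was not called. The summed list was at 259 and 256 CPM in the pair and 197 to 255.5 CPM elsewhere, and its part in the level of the members was not tested.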

How the data were processed

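RNA of 8 whole fetal lungs was sequenced by the authors as 150-bp read pairs and aligned with STAR to mm10. The deposited values are raw counts of reads per gene, without filter or normalization. The column for both strands together was used. The version of STAR and the annotation are not given in the sources used here. Rows that name no gene (unmapped, several places, no gene, more than 1 gene), 23.1% to 27.1% of all reads, were left out of library sizes. Of 55385 gene IDs, 54487 equalled those of GENCODE M21 with version, and symbols, coordinates (GRCm38) and exon lengths were taken from it.

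From the counts, CPM after TMM and log2 fold changes (prior count 2 for log2 CPM) were computed in R 4.3.3. The quasi-likelihood test of edgeR 4.0.16 (two-sided) was run on every gene that reached 5 reads in no fewer than 3 libraries, with adjusted p-values by Benjamini-Hochberg over all of them and a threshold of 0.1. The SE given was derived from this test, as the absolute log2 fold change divided by the square root of the F statistic. DESeq2 1.42.0, limma 3.58.1 (voom), other filters and scaling, blocks and libraries left out were alternatives. The code was tested on simulated data. Promoters and figures were made in Python 3.11.15. The members, gene lists and the pair with code C were chosen with earlier results of these data known, so the comparison of that pair describes these libraries. Named members are the 3 most abundant of each role (24) and the 12 with the smallest p among those called whose pair does not overlap the other libraries, 29 in all. A list of further signalling genes is not reported here. Other members named were singled out after their values were seen. Fold changes of low genes are pulled toward 0 where libraries have no read.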

Additional observations from a re-analysis of the deposited data

Results flagged for a closer look

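In groups of 4 libraries, a library far from the other 3 by Dixon's test (gap over range above the 95% critical value) was found for 17 members in control 3, for 8 in TO 3 and for 1 in control 2. The same rule set apart the highest level of 3.7% of all genes in control 3, 1.62% in TO 3 and 1.06% in control 2. Members are not independent of each other. The members set apart in control 3, with the highest control level, were Ddx58 (68.5 CPM), Zbp1 (1.78), Oas1a (4.17), Oas3 (1.51), Oasl2 (75.1), Ifit1 (29.3), Ifit3 (14.3), Ifit3b (3.29), Mx1 (2.59), Mx2 (13.8), Ifitm1 (66.1), Rsad2 (27.6), Cmpk2 (28.8), Isg15 (9.28), Parp14 (80.9), Trim30a (30.1) and Gbp3 (19.6). The highest TO levels set apart in TO 3 were those of Stat2 (128 CPM), Ifih1 (56.9), Oas1b (21.4), Ifit1 (42.8), Ifit3 (39.2), Isg15 (30.7), Xaf1 (45.4) and Lgals3bp (91.2). Ifi35 stood apart in control 2, at 16.6 CPM, and in neither library of the pair. Ifit1, Ifit3 and Isg15 stood apart in both control 3 and TO 3.

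The direction of TO against control differed between specimen codes. The median ratio of the members was 0.777 for TO 2 over control 2, and above 1 for TO 3 over control 3 and for TO 4 over the mean of controls 1 and 4. This difference was not tested, since each ratio rests on single TO libraries.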

How the results depend on the processing

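For the pair of control 3 and TO 3, the log2 fold change of every named member that could be tested was above 0 under every tool, scaling and filter tried. No member was called for TO under any of them, and edgeR with all 8 libraries called 0% of all genes for TO. The libraries themselves were not always apart, since both of the pair lay above the other 6 for 29 members. With at least 5 reads in every library only 19 members could be tested, because TO 1 is shallow. All 19 were above 0 for TO (47% of all genes under this filter) and for the pair (48.5%, with 17 members and 8.13% of all genes called, median 0.98), and 17 for the interaction (51.1%). With TO 1 left out and the same filter, an alternative chosen after seeing the data, 34 of 38 were called for the pair (5.86% of all genes). Over the libraries left out in turn, at most 37 members were called for the pair, and the number fell without control 3 and without TO 3. Members above 0 for TO numbered 16 to 42, and the interaction's median ran from 0.0608 to 1.02 (1.02 without TO 4). Of the called members named, some lost their call for the pair when a library was left out, and none changed sign. Fewer of all genes were called too when control 3 or TO 3 was left out.

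For TO, the direction changed for 20 named members when TO 3 was left out, and over the libraries left out in turn their log2 fold changes ran from -0.136 to 0.676 (Stat2), -0.0713 to 0.664 (Irf9), -0.0428 to 0.933 (Ifih1), -0.227 to 0.397 (Ddx58), -0.795 to 0.733 (Oas1b), -0.306 to 1.25 (Oasl2), -1.21 to 3.09 (Ifit1), -0.173 to 4.73 (Ifit3), -0.599 to 1.83 (Mx2), -0.181 to 0.598 (Bst2), -0.32 to 2.26 (Rsad2), -0.197 to 0.268 (Samd9l), -0.00914 to 2.9 (Isg15), -0.0272 to 0.5 (Parp9), -0.217 to 0.957 (Parp14), -0.281 to 1.53 (Trim30a), -0.697 to 1.62 (Ifi44), -0.0766 to 1.21 (Rtp4), -0.332 to 0.928 (Xaf1) and -0.0125 to 0.96 (Irgm1). Without control 3 and TO 3 it changed for Ddx58 (-0.0656), Oas1b (-0.662), Bst2 (-0.0222) and Samd9l (-0.0232). Oas1b also changed with limma-voom (-0.0975), a block for the specimen code (-0.105) and a term for code C (-0.103).

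Replicate numbers are shared between groups. Deviations of same-numbered lungs correlated at 0.0518, 0.13, 0.157 and 0.0709. Not every pair was over 0.1, so the number was not taken to pair the lungs. By specimen code, correlations between groups were 0.0221 to 0.157 within a code and -0.164 to 0.00452 between codes, and every lung correlated best with a lung of its own code. With the replicate block, 39 members were above 0 for TO (47.2% of all genes; median 0.37), 0 were called by edgeR (0.0133% of all genes), 13 had an unadjusted p under 0.05 (2.74% of all genes), and Oas1b was at -0.13. With the code as the block, 41 were above 0 (48.1% of all genes; median 0.45), 0 were called by edgeR, and 14 had an unadjusted p under 0.05 (3.08% of all genes).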

Other observations

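Of the induced genes outside the list of members, 19 of 47 were called higher in the pair with code C than in the other libraries (edgeR, adjusted p under 0.1), beside 2.62% of all genes. The genes given here were chosen after their values were seen, and those given with a fold change were all called for the pair. Others of the list were not highest in both libraries of the pair. Ifi27l2a was at 0.569, 0.26, 0.639 and 0.444 CPM in controls 1 to 4. In TO 1 to 4 it was at 6.89 (2 reads), 0.492, 6.27 and 4.31 CPM. Tgtp1 had every TO library above every control (0.71% of all genes), at 1 read in TO 1. Ifi204, of the DNA-binding Ifi200 family, was at 2.15, 1.23, 8.37 and 2.26 CPM in controls 1 to 4 and 0, 1.74, 19.3 and 5.02 CPM in TO 1 to 4 (2.37 ± 0.41 on the log2 scale, adjusted p = 0.0101), and its relative Ifi203 was called too (1.88 ± 0.40, adjusted p = 0.025). Phf11d was at 4.42, 7.67, 21.2 and 6.58 CPM in controls 1 to 4 and 3.44, 8.05, 39.5 and 9.82 CPM in TO 1 to 4 (1.98 ± 0.24, adjusted p = 0.00331). Slfn5, a schlafen family member, was at 19.5, 25.5, 74.0 and 28.2 CPM in controls 1 to 4 and 3.44, 25.5, 66.9 and 33.6 CPM in TO 1 to 4, and control 3 and TO 3 were close to each other (1.47 ± 0.26, adjusted p = 0.0106). Genes of antigen presentation that were called were B2m and Tap1, the peptide transporter, at 0.63 ± 0.14 and 0.76 ± 0.20.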
